A study of Mus musculus with 16 samples.

Results

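The comparison concerned 8 of the 16 liver libraries of the series, chosen by their titles: 4 mouse livers whose hepatocytes were given Cre recombinase to delete Chrebpα, and 4 controls. All 8 came from Chrebpα-flox/flox mice, so both groups carry the floxed allele. WT_NASH (livers 17 to 20) received AAV-TBG-GFP, an adeno-associated virus that expresses green fluorescent protein, and LKO_NASH (livers 21 to 24) received AAV-TBG-Cre. TBG is a hepatocyte promoter, so Cre is directed to hepatocytes and not to the other cells of the liver. Both groups ate a NASH diet for 12 weeks, a diet that produces non-alcoholic steatohepatitis and here supplied 40% of its energy as fat (palm oil), 20% as fructose, and 2% cholesterol. Age and sex are not given for these mice. The Y-linked gene Ddx3y had an FPKM (the authors' fragment count scaled to transcript length and library size) of 10.9 to 12.4 in WT_NASH and 11.2 to 12.2 in LKO_NASH, and Xist was listed in none of the 8 libraries. Hepatocyte transcripts dominated every library, with albumin (Alb) at an FPKM of 31450.0 to 41240.0 in WT_NASH and 29280.0 to 38610.0 in LKO_NASH.

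ChREBP is a transcription factor that responds to sugar metabolites. The gene Mlxipl encodes it as a long isoform, ChREBPα, and a shorter isoform, ChREBPβ, whose own promoter ChREBPα can switch on. With its partner Mlx it binds carbohydrate response elements, which are paired E-box-like repeats, and in liver it is known for driving glycolysis, fructose breakdown and fatty acid synthesis. The promoter of Pklr, which encodes the liver pyruvate kinase, holds the classical element of this kind and is shown for that reason. It is a RefSeq window of GRCm38.p6, chr3:89136373-89136672 on the plus strand, with the element in capitals.
Pklr promoter: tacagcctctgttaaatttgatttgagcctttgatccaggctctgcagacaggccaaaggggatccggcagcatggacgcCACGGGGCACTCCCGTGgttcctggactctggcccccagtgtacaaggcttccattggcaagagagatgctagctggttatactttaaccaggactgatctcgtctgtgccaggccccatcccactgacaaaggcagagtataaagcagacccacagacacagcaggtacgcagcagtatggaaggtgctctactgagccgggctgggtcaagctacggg
The element was searched on both strands as CACGNGNNNNNCNCGTG and begins at position -170 from the gene start. It lies in 15 of 32851 promoter windows of the same length (0.0457%), 7 of 10392 belonging to genes tested here. Each match is one of letters and not a measured binding site.

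The libraries held 21254937 to 40327264 expected counts in WT_NASH and 21569511 to 32110154 in LKO_NASH, and the 10 most counted genes took 16.69% to 20.35% of them. Liver 21 stood apart from the other LKO_NASH livers. On the first principal component of the 1000 most variable genes (44.1% of the variance), livers 22, 23 and 24 lay at 24.86, 25.47 and 20.6, and the WT_NASH livers 17 to 20 at -30.17, -5.73, 1.66 and -19.04. Liver 21 lay at -17.64, among the WT_NASH livers, and on the second component (22% of the variance) at -22.54, where the WT_NASH livers lay between -8.49 and 24.7. No value here checks whether Chrebpα was deleted in liver 21 or whether its label is right, so every value of LKO_NASH over 8 livers depends on that label. Results are therefore given with and without it, and the choice of that library was made with earlier results of these data known. The labels do not say outright that the livers came from separate mice, so the p-values rest on the spread between these samples, which may be technical. Values given per liver without another unit are FPKM in liver order, and WT_NASH livers are called the controls.

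**Figure D1:**
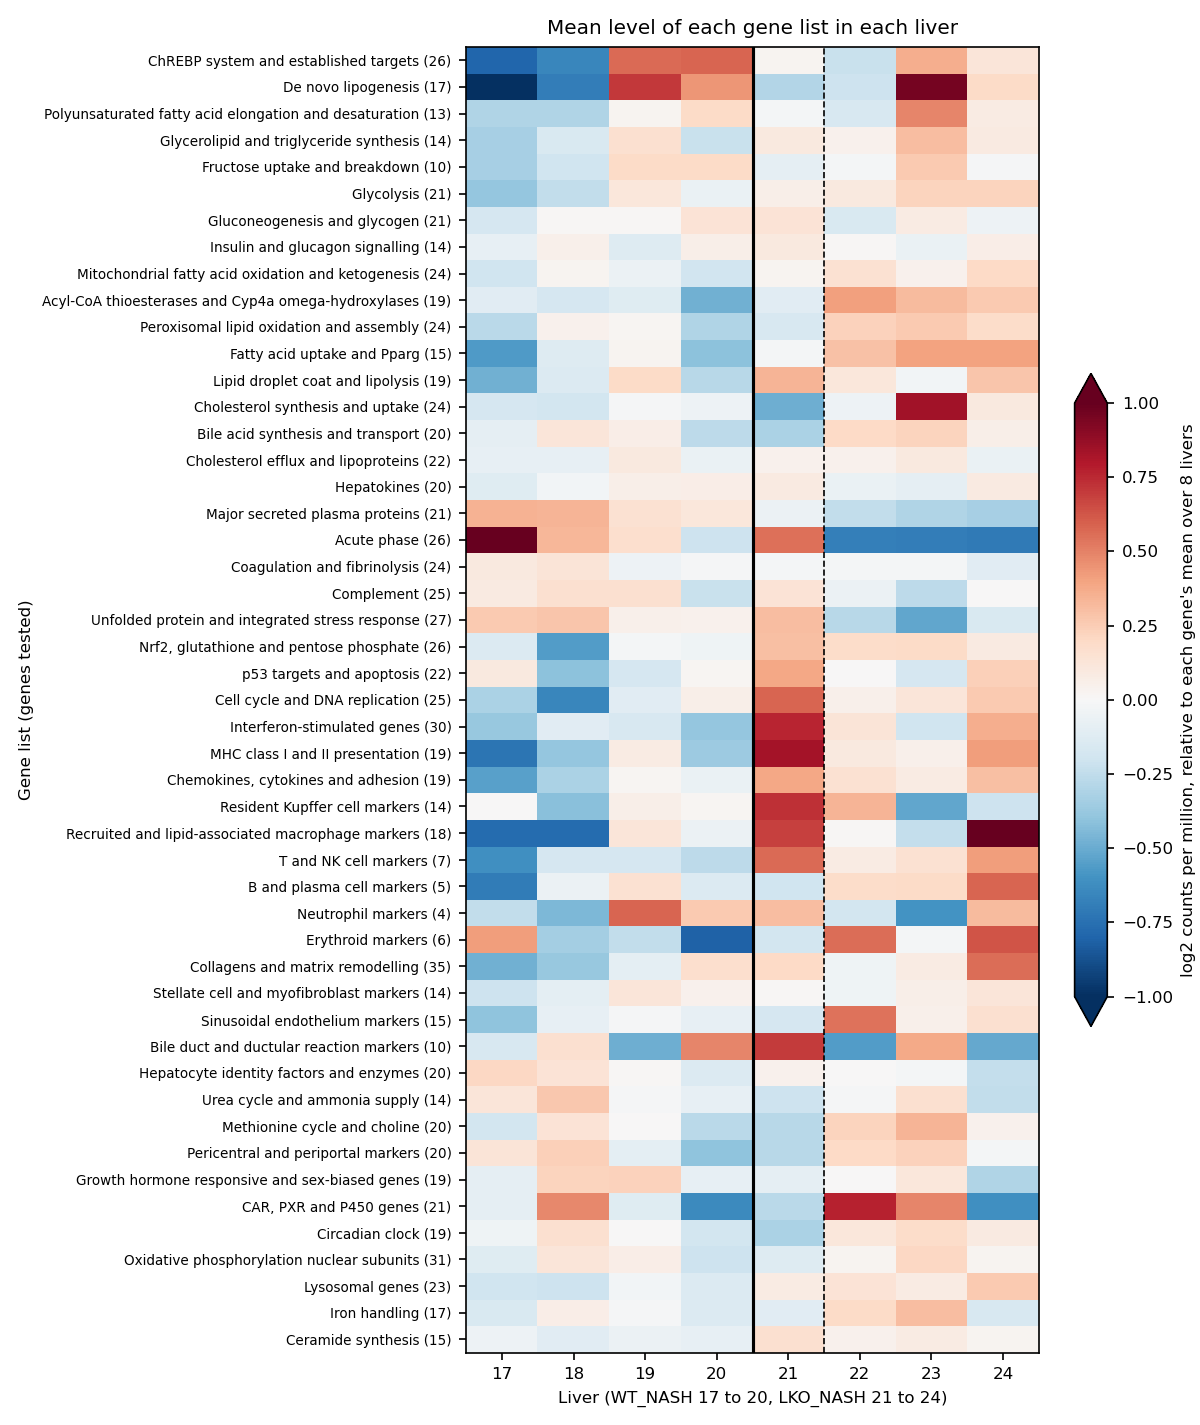
Heat map of the level of each of the 49 gene lists in the 8 livers: each cell is the mean, over the tested members, of log2 normalised counts minus the gene's own mean over the 8 livers, on a colour scale from -1 to 1. Acute-phase genes were at -0.71 to -0.68 in livers 22 to 24 and at 0.55 in liver 21, while MHC presentation genes were at 0.83 in liver 21 and at 0.05 to 0.42 in livers 22 to 24.

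Over all 8 livers no gene passed the edgeR test. edgeR's quasi-likelihood test with Benjamini-Hochberg adjustment called 0 genes higher and 0 lower of 12786 (0.0% each way), and the lowest adjusted p was 0.242. At an unadjusted p below 0.05, 985 genes were higher (7.7%) and 752 lower (5.88%), and 51.5% of all tested genes had a positive and 48.5% a negative log2 fold change. Limma-voom also called 0 and 0, and DESeq2 called 90 higher (0.704%) and 68 lower (0.532%). With normalised counts (scaled by TMM, edgeR's trimmed mean method), the 4 LKO_NASH livers lay above all 4 WT_NASH livers for 377 genes (2.95%) and below them for 397 (3.1%). In FPKM, where the group's values run higher across all genes, the same counts were 886 (6.93%) and 86 (0.673%). The all-gene median log2 fold change was 0.01 on counts and 0.102 on log2(FPKM + 1) with 8 livers, and 0.016 and 0.115 without liver 21. Directions below are those on counts.

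With liver 21 left out, 166 of 12975 genes passed the edgeR test as higher (1.28%) and 254 as lower (1.96%). Their absolute log2 fold changes had medians of 0.90 and 0.72, and 67 and 65 of them were at least 2-fold. Called below means passing this test without liver 21, unless another tool is named. At an unadjusted p below 0.05 in the same fit 1761 genes were higher (13.6%) and 1952 lower (15.0%), and DESeq2 called 749 higher (5.77%) and 1036 lower (7.98%). These shares of all tested genes, and those given for 8 livers, are the background for the counts of list members below. The edgeR calls rest on 3 livers against 4, and most were lost when 1 more of livers 22, 23, 24, 17 or 20 was left out, with 0 and 0 calls left without 22, 5 and 3 without 23, 11 and 16 without 24, 28 and 50 without 17, and 21 and 41 without 20. Without liver 18 there were 133 and 136 calls, of which 85 and 111 were among the 166 and 254. The 166 and 254 calls did not rest on liver 19, without which edgeR called 621 and 904 genes, all of these among them. The genes called in each of these further fits except the one without liver 22 were H2-Q1, Acot2, Mgst3 and Wfdc2, higher, and Insc and Slc41a2, lower. Of these Mgst3, Wfdc2 and Insc are named after their values were seen. Mgst3, a microsomal glutathione transferase gene, had 8.0, 9.31, 11.4 and 8.68 FPKM in WT_NASH, 9.88 in liver 21 and 27.2, 27.7 and 30.2 in livers 22 to 24. Insc, a gene of spindle orientation, had 8.84, 8.56, 7.13 and 8.79 in the controls, 8.84 in liver 21 and 3.26, 3.99 and 3.6 in livers 22 to 24. Both placed liver 21 inside or at the edge of the control range, and their log2 fold changes without it were 1.43 and -1.37 (adjusted p = 0.00891 and 0.00902). On log2(FPKM + 1) the 7-liver calls were 991 higher and 125 lower, so the share of higher calls was 88.8% there and 39.5% on counts.

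Liver 21 was left out because earlier results of these data had set it apart from the other LKO_NASH livers. Its values for these genes describe that observation further and are no independent support for it. For the 414 of the 420 called genes that were tested in both fits, liver 21 was set between the group means, with 0 for the WT_NASH mean and 1 for the mean of livers 22 to 24. The genes were chosen for a wide distance between those means. The median position of liver 21 was -0.10 (quartiles -0.31 and 0.19). For 370 of the 414 genes (89.4%) liver 21 was nearer to the WT_NASH mean, for 218 it lay inside the range of the WT_NASH livers, and for 12 inside the range of livers 22 to 24. Among the genes for which it lay with livers 22 to 24 were Pex11a at 0.937, Ube2c at 0.912 and the DNA ligase gene Lig1 at 1.016. Mki67, the marker of cycling cells, was beyond them at 1.701, and at the other end the bile acid enzyme gene Cyp7a1 was at -1.419. 

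**Figure D2:**
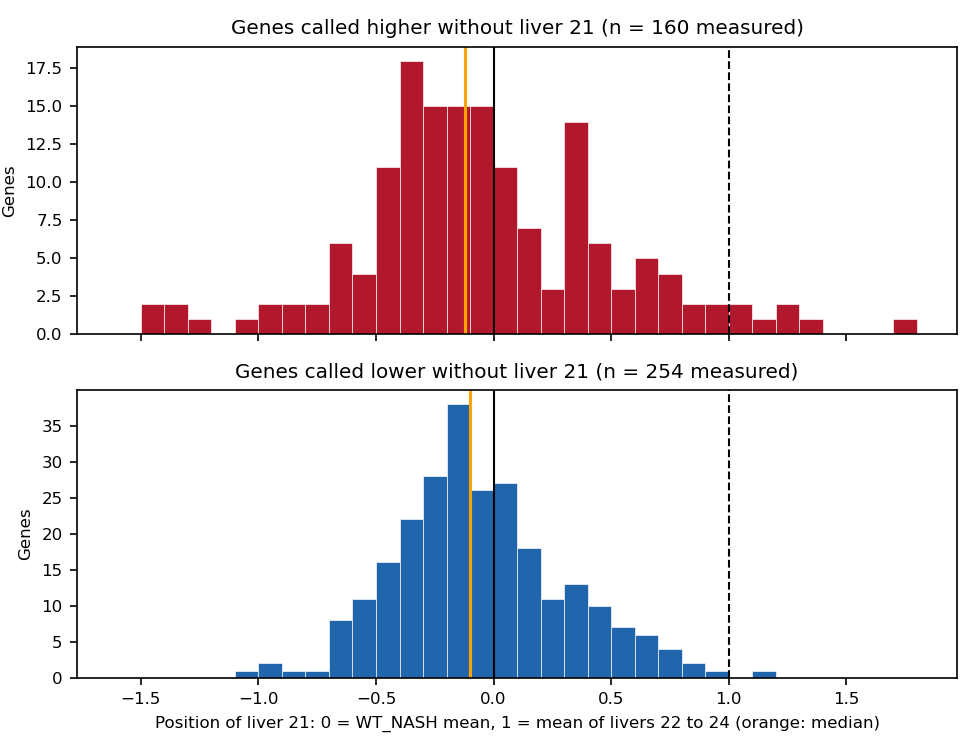
Histogram of the position of liver 21 for genes called without it, on an axis where 0 is the WT_NASH mean and 1 the mean of livers 22 to 24, in normalised log2 counts; genes called higher and lower are shown separately. The bulk of both histograms lies around 0, with medians of -0.12 for the higher and -0.10 for the lower calls.

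Mlxipl did not separate the groups. Its FPKM was 50.1, 77.5, 80.4 and 56.4 in livers 17 to 20 and 47.5, 100.1, 85.1 and 72.9 in livers 21 to 24. The highest and the lowest of the 8 values were both in livers labelled LKO_NASH. The log2 fold change was 0.05 with a 95% interval of -0.49 to 0.60 (adjusted p = 0.916, edgeR), and 0.21 without liver 21 (-0.25 to 0.68). The sources used here do not state which exons Cre removes. The tables list 1 transcript for Mlxipl, so a shortened message could still be counted and this value does not check the labels. Mlx, the dimer partner, was at 18.4 ± 2.83 in WT_NASH and 15.7 ± 1.27 in LKO_NASH (FPKM, SD, n = 4), with a log2 fold change of -0.36 (adjusted p = 0.356). Mlxip, which encodes the related sugar sensor MondoA, was at 1.38 ± 0.0876 and 1.78 ± 0.0776 on the same measure, a log2 fold change of 0.22 (adjusted p = 0.384).

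Established ChREBP targets differed widely among the WT_NASH livers. For Pklr the FPKM was 26.9, 39.4, 293 and 257 in livers 17 to 20 and 126, 117, 194 and 182 in livers 21 to 24. Livers 17 and 18 were low and 19 and 20 high, and all 4 LKO_NASH values lay in the gap between them. Fasn, the fatty acid synthase gene, had 6.58, 9.71, 66.5 and 44.6 in the controls and 16.3, 16.9, 80.3 and 48.3 in LKO_NASH, and Elovl6, which elongates its product, 5.91, 7.59, 93.6 and 83.8 in the controls and 26.8, 11.9, 42.7 and 40.7 in LKO_NASH. Thrsp, a lipogenic cofactor gene, had 15.9, 102, 832 and 255 in WT_NASH, again lower in livers 17 and 18, against 60.6, 236, 772 and 473 in LKO_NASH. A list of 26 genes held the ChREBP system, Mlx and Mlxip among them, and its established targets. Its mean level (log2, relative to each gene's mean over 8 livers) was -0.79, -0.65, 0.57 and 0.58 in livers 17 to 20 and 0.03, -0.22, 0.36 and 0.12 in livers 21 to 24. Over 8 livers 12 of the 26 were positive and 14 negative, 0 and 1 passed an unadjusted p below 0.05, and the median log2 fold change was -0.05 (0.01 over all tested genes), with 0 called by edgeR or DESeq2 without liver 21, where 0 were higher and 1 lower with unadjusted p below 0.05. The 1 lower gene was Mlx in both fits (unadjusted p = 0.0251 and 0.0119, edgeR), so no established target passed. The median of the list was 0.19 on log2(FPKM + 1), so the list has no settled direction. The regulator gene Srebf1 was at 29.9, 84.8, 149 and 99.96 in the controls and 42.9, 96.3, 135 and 96.5 in LKO_NASH, the redox regulator gene Txnip at 45.7, 50.9, 64.0 and 66.0 in the controls and 75.1, 65.7, 34.2 and 101 in LKO_NASH, and the hepatokine gene Fgf21 at 1.48, 2.63, 2.19 and 9.9 in the controls and 7.05, 3.25, 3.69 and 7.07 in LKO_NASH. All 3 overlapped between the groups, with log2 fold changes of -0.11, 0.13 and 0.25 and adjusted p of 0.91, 0.817 and 0.826 by edgeR.

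Glycolysis genes, which break down glucose, had mostly positive log2 fold changes over 8 livers. Of the 21 glycolysis genes 18 were positive, 4 of them at an unadjusted p below 0.05, and of the 10 fructose genes 6 were positive and 4 negative, with 1. Among 21 genes of gluconeogenesis and glycogen 11 were positive and 10 negative. Without liver 21 edgeR called 0 members of these 3 lists, with 5 higher and 2 lower glycolysis genes, 2 and 1 fructose genes and 3 and 2 genes of gluconeogenesis and glycogen at an unadjusted p below 0.05, and DESeq2 called 0 and 1, 0 and 0, and 3 and 2. All tested genes were 13.6% higher and 15.0% lower at that unadjusted p, and DESeq2 called 5.77% and 7.98% of them. Of 14 genes of insulin and glucagon signalling, Foxo3, which encodes a transcription factor held back by insulin, rose without liver 21 (log2 fold change 0.77, adjusted p = 0.0389), from 5.01, 6.01, 5.51 and 4.23 in WT_NASH to 8.92, 10.7 and 10.3 in livers 22 to 24, with 7.49 in liver 21. Sik1, a kinase gene induced by glucagon signals, fell (log2 fold change -1.14, adjusted p = 0.0461).

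The gene of lowest p over 8 livers belongs to a family that handles fatty acyl-CoA. Acyl-CoA thioesterases release free fatty acids from coenzyme A in mitochondria, peroxisomes and cytosol. Acot2, the mitochondrial form, had an FPKM of 5.51, 3.78, 5.1 and 5.25 in the controls and 9.79, 14.2, 11.5 and 16.3 in LKO_NASH. All 4 LKO_NASH livers were above all WT_NASH livers, liver 21 included, and the log2 fold change of 1.24 with SE 0.15 had an adjusted p of 0.242 over 8 livers. Without liver 21 it rose by 1.33 (adjusted p = 0.00957). Acot1, the cytosolic form, had 32.2, 42.2, 33.0 and 33.7 in the controls and 50.6, 97.0, 54.6 and 84.5 in LKO_NASH, again without overlap (log2 fold change 0.98 without liver 21, adjusted p = 0.0389). The peroxisomal forms behaved otherwise in liver 21. Acot3 had 9.37, 5.75, 11.1 and 8.54 in the controls, 9.89 in liver 21 and 65.1, 58.5 and 27.0 in livers 22 to 24, and Acot4 had 11.0, 9.63, 14.4 and 13.9 in the controls, 12.1 in liver 21 and 35.5, 28.7 and 28.7 in livers 22 to 24. Without liver 21 Acot3 rose by 2.38 (adjusted p = 0.0213) and Acot4 by 1.17 (0.0177). The 4 genes are close copies of one another, so the division of reads among them is uncertain. In the list of thioesterases and Cyp4a fatty acid ω-hydroxylases 16 of 19 tested genes were positive (median 0.37), 4 at an unadjusted p below 0.05, and 4 were called higher and 0 lower without liver 21.

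Peroxisomes shorten very long fatty acids, and Pex11a encodes a membrane protein that drives their division. It had 54.0, 56.3, 56.5 and 52.8 in the controls and 88.8, 93.7, 85.8 and 110.1 in LKO_NASH. The control values were close together and all 4 LKO_NASH values lay above them, with a log2 fold change of 0.63 ± 0.09 (SE, n = 4 and 4, adjusted p = 0.254) over 8 livers and 0.64 (adjusted p = 0.0239) without liver 21. Of 24 peroxisomal genes 18 were positive, 5 at an unadjusted p below 0.05, and 2 were called higher without liver 21, Pex11a among them.

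Of 24 mitochondrial oxidation genes 19 were positive with a median of 0.12, 4 at an unadjusted p below 0.05. Without liver 21 edgeR called 0 of them, with 7 higher at an unadjusted p below 0.05, and DESeq2 called 5 higher. The shares of all tested genes higher by these 2 measures were 13.6% and 5.77%. Cpt1a, the liver form of the carnitine palmitoyltransferase that admits fatty acids to mitochondria, had a log2 fold change of 0.00 (95% interval -0.28 to 0.28). Its muscle form Cpt1b, outside the list and named after its values were seen, rose without liver 21 from 0.79, 1.23, 0.81 and 0.86 in WT_NASH to 2.73, 1.7 and 3.01 in livers 22 to 24 (log2 fold change 1.26, adjusted p = 0.0376), with 1.49 in liver 21. Ppara, the receptor that drives these programmes, had 0.06 (adjusted p = 0.813). The 31 nuclear subunits of oxidative phosphorylation had a median of 0.07, with 0 members at an unadjusted p below 0.05 in either direction.

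Receptors and transporters of fatty acid uptake were counted in a list with the receptor gene Pparg and with Mogat1. Vldlr, the very low density lipoprotein receptor, was low in WT_NASH with 0.15, 0.28, 0.14 and 0.11 FPKM and in liver 21 with 0.13, and it was 1.29, 0.68 and 0.85 in livers 22 to 24. It rose by 2.31 without liver 21 (adjusted p = 0.0279). Slc27a1, a fatty acid transport protein gene, had 2.44, 3.51, 3.29 and 2.44 in the controls, 3.15 in liver 21 and 4.95, 6.72 and 5.83 in livers 22 to 24 (log2 fold change 0.83 without liver 21, adjusted p = 0.0491). Cd36, the scavenger receptor for fatty acids, had 5.31, 20.1, 38.8 and 13.8 in the controls and 35.6, 71.0, 48.6 and 58.7 in LKO_NASH, so liver 21 lay just under the highest control, and its log2 fold change of 1.30 (adjusted p = 0.356) was 1.44 without liver 21 (0.109). Of the 15 genes of that list 13 were positive (median 0.29) and 5 passed an unadjusted p below 0.05. Mogat1, a monoacylglycerol acyltransferase gene of triglyceride synthesis, had 0.27, 0.86, 1.95 and 0.17 in WT_NASH and 1.13, 5.16, 4.19 and 4.05 in LKO_NASH (log2 fold change 2.25 without liver 21, adjusted p = 0.0696), and it also belongs to the list of 14 genes of triglyceride synthesis. Without liver 21 edgeR tested 15 genes of that list, against 14 over 8 livers, and called 0. In that fit 6 were higher and 1 lower with unadjusted p below 0.05, and DESeq2 called 5 higher, Mogat1 among them, and 1 lower. Of 17 lipogenesis genes 12 were positive over 8 livers, with 0 at an unadjusted p below 0.05 in either direction. With liver 21 left out 14 of the 17 were positive and edgeR called 0. At an unadjusted p below 0.05 there, 2 were higher and 0 lower (13.6% and 15.0% of all tested genes). DESeq2 called 1 higher, Acss2 (adjusted p = 0.0283), and 0 lower (5.77% and 7.98% of all tested genes). Of 13 genes of polyunsaturated fatty acid synthesis Fads6, a desaturase-like gene, rose by 0.41 without liver 21 (adjusted p = 0.0441). Of 19 lipid droplet genes 14 were positive, and edgeR called 0 (3 higher and 2 lower with unadjusted p below 0.05 without liver 21) where DESeq2 called 2 higher and 1 lower.

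**Figure D3:**
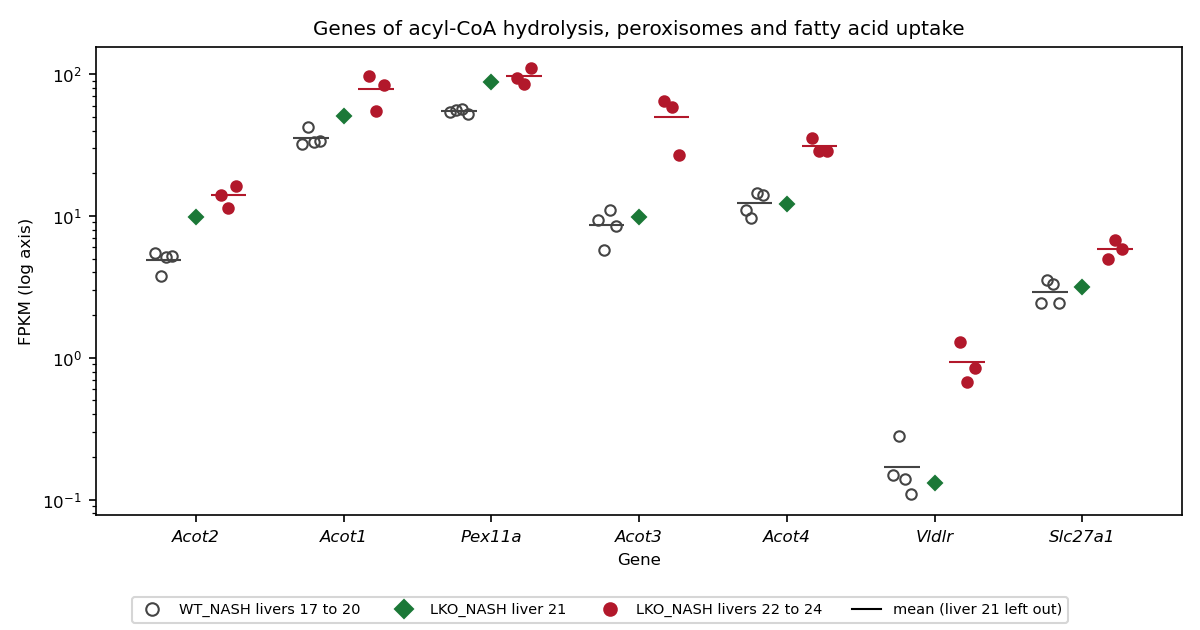
FPKM per liver, on a log axis, of 7 genes of acyl-CoA hydrolysis, peroxisomes and fatty acid uptake; open circles are WT_NASH livers 17 to 20, filled circles LKO_NASH livers 22 to 24 and the diamond liver 21, with a bar at the mean of the 4 WT_NASH livers and of livers 22 to 24. Acot2, Acot1 and Pex11a place liver 21 above all controls, and Acot3, Acot4, Vldlr and Slc27a1 place it among them.

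Of the 49 lists, acute-phase genes had the lowest median log2 fold change without liver 21. These are plasma proteins and regulators that hepatocytes make under interleukin 6 and interleukin 1, largely through STAT3. Stat3 itself had an FPKM of 45.8, 42.1, 47.3 and 37.9 in the controls, 48.3 in liver 21 and 22.1, 20.9 and 21.3 in livers 22 to 24. Livers 22 to 24 were close together below every control, and liver 21 was above every control. Stat3 fell by 1.19 on the log2 scale without liver 21 (SE 0.12, adjusted p = 0.00957), and its log2 fold change was -0.76 over 8 livers (adjusted p = 0.356). Socs3, the feedback inhibitor that STAT3 induces, had 5.73, 6.44, 4.47 and 7.86 in the controls, 7.07 in liver 21 and 2.02, 1.88 and 1.66 in livers 22 to 24, a log2 fold change of -1.89 without liver 21 (adjusted p = 0.00957) and -1.08 with it (0.367). Il1r1, the interleukin 1 receptor, had 56.1, 33.7, 31.7 and 20.7 in the controls, 49.0 in liver 21 and 11.1, 10.3 and 14.1 in livers 22 to 24, and fell without liver 21 (log2 fold change -1.78, adjusted p = 0.0376).

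The 3 fibrinogen chains, whose genes are transcribed together, were lower together in livers 22 to 24. Fga had 3760.0, 2092, 2102 and 2494 FPKM in WT_NASH, 3079 in liver 21 and 1044, 1220.0 and 965 in livers 22 to 24. Livers 22 to 24 were below every control for Fga, Fgb and Fgg, and liver 21 was second only to liver 17. Without liver 21 the log2 fold changes were -1.45, -1.34 and -1.26 (adjusted p = 0.0388, 0.0441 and 0.0359). Steap4, a metalloreductase gene, had 169, 162, 128 and 81.8 in the controls, 124 in liver 21 and 49.9, 44.7 and 63.0 in livers 22 to 24 (log2 fold change -1.55, adjusted p = 0.0337). Lrg1, a secreted glycoprotein gene, and Itih3, of the inter-α-trypsin inhibitors, also fell without liver 21 (-1.50 and -1.37, adjusted p = 0.0388 and 0.043). Saa1, serum amyloid A, varied widely among controls with 1750.0, 535, 415 and 148, against 475, 74.4, 79.5 and 144 in LKO_NASH, and was not called by edgeR (log2 fold change -3.06 without liver 21, adjusted p = 0.0609). Hamp, the iron hormone hepcidin, had 1192, 2249, 1174 and 2091 in the controls and 1720.0, 534, 939.9 and 302 in LKO_NASH (-1.65, adjusted p = 0.0625).

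As a list, 24 of 26 acute-phase genes were negative over 8 livers with a median of -0.81, and 8 passed an unadjusted p below 0.05. Without liver 21 the median was -1.29 and 9 were called lower and 0 higher. The list level was 1.24, 0.33, 0.17 and -0.21 in livers 17 to 20 and 0.55, -0.68, -0.69 and -0.71 in livers 21 to 24. Liver 17 was the highest and livers 22 to 24 the lowest, while liver 21 was above 3 of the 4 controls. Among the 9 called genes the position of liver 21 ran from -0.27 to 0.28. The promoter of Steap4 is shown because it carries a STAT element, searched as TTCCNGGAA, in capitals at position -116 (RefSeq, GRCm38.p6, chr5:7960222-7960521, plus strand).
Steap4 promoter: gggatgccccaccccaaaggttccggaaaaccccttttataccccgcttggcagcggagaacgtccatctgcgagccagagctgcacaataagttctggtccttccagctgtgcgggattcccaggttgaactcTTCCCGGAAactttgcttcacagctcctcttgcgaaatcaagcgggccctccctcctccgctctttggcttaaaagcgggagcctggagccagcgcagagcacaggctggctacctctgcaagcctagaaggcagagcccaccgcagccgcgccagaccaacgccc
This motif lies in 377 of 32851 promoter windows (1.15%), in 165 of the 10392 tested genes matched (1.59%), in 8 of the 196 matched genes called lower without liver 21 (4.08%) and in 1 of the 130 called higher (0.769%). These shares are descriptions of letters and were not tested.

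**Figure D4:**
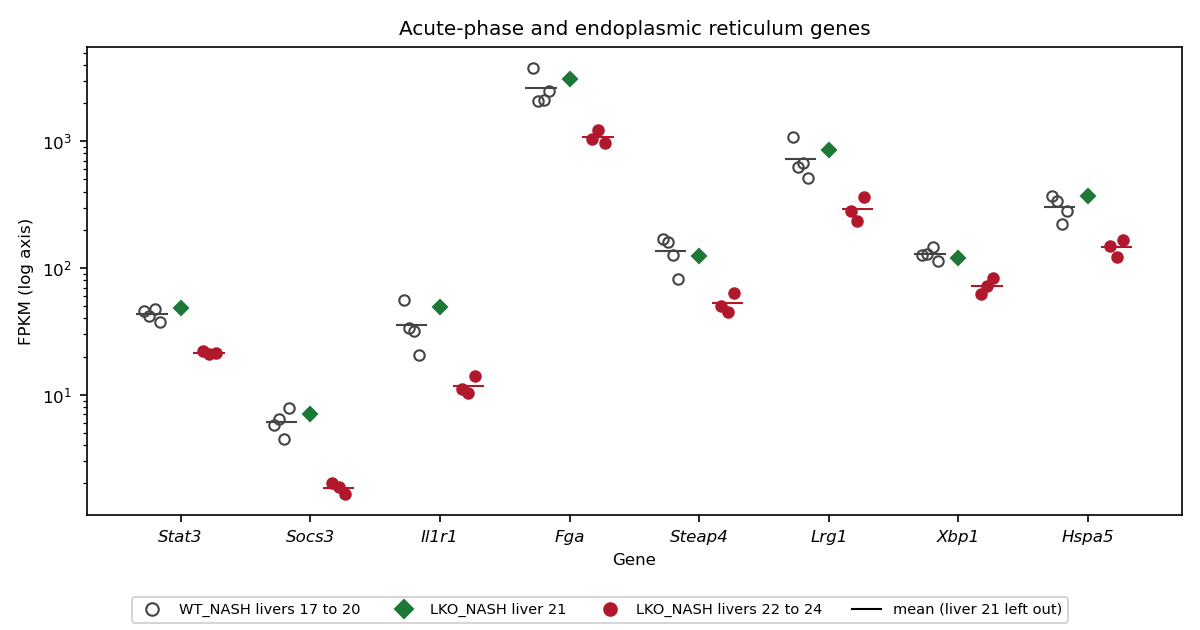
FPKM per liver, on a log axis, of 8 acute-phase and endoplasmic reticulum genes, with symbols as in the plot of lipid genes. In each of the 8 genes livers 22 to 24 lie below all 4 controls and liver 21 lies within or above the controls.

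Other plasma proteins of hepatocytes were counted separately. Of 21 major secreted proteins 18 were negative over 8 livers (median -0.35), 9 at an unadjusted p below 0.05, and 5 were called lower without liver 21. Ahsg (fetuin A) had 6093, 5390.0, 5742 and 7314 in the controls and 5770.0, 3767, 3401 and 4173 in LKO_NASH, and its relative Fetub had 522, 548, 498 and 480.1 in the controls and 510.4, 314, 325 and 328 in LKO_NASH. In both, liver 21 was inside the control range and livers 22 to 24 below it, and without liver 21 they fell by 0.87 and 0.82 on the log2 scale (adjusted p = 0.0425 and 0.0313). Serpina1e, an α1-antitrypsin copy of mice, had 9034, 5992, 5766 and 9009 in the controls, 5006 in liver 21 and 215, 258 and 1674 in livers 22 to 24, a log2 fold change of -3.60 (adjusted p = 0.0435). Its reads can be shared with near-identical copies. Enho, which encodes the peptide hormone adropin, had 10.1, 6.19, 3.34 and 7.27 in the controls and 2.51, 0.54, 0.37 and 2.34 in LKO_NASH and was below all controls in all 4 LKO_NASH livers (-2.79 without liver 21, adjusted p = 0.0461). Of 25 complement genes 18 were negative, and at an unadjusted p below 0.05 10 were lower and 2 higher. The called one was C8b, of the membrane attack complex, at 147, 149.6, 115 and 146 in the controls and 125, 51.1, 44.6 and 79.0 in LKO_NASH (-1.44 without liver 21, adjusted p = 0.0213). C9, its pore-forming subunit, had 263, 243, 205 and 213 in the controls and 179, 166, 136 and 204 in LKO_NASH, below all controls in all 4 LKO_NASH livers (-0.59 over 8 livers, adjusted p = 0.307). Of 24 coagulation genes 19 were negative with a median of -0.19. Without liver 21 edgeR called 0 of them, with 2 higher and 5 lower with unadjusted p below 0.05, and DESeq2 called 2 higher and 3 lower. Over all tested genes the higher and lower shares were 13.6% and 15.0% at that unadjusted p, and 5.77% and 7.98% by DESeq2.

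Several regulators of protein folding in the endoplasmic reticulum fell without liver 21. The unfolded protein response matches folding capacity to the load of secreted protein, through the sensors IRE1 with its target XBP1, PERK with ATF4, and ATF6. Xbp1 had an FPKM of 127, 129, 146 and 114 in the controls, 121 in liver 21 and 61.9, 72.6 and 83.6 in livers 22 to 24 (log2 fold change -1.001 without liver 21, adjusted p = 0.0239). Hspa5, the chaperone BiP, had 373, 339, 222 and 281 in the controls, 367 in liver 21 and 148, 123 and 167 in livers 22 to 24 (-1.24, adjusted p = 0.0328). Both had livers 22 to 24 below all controls and liver 21 inside the control range. Atf4, Atf6 and Manf, which encodes a secreted stress protein, also fell (-0.57, -0.47 and -1.05, adjusted p = 0.0435, 0.0441 and 0.0314), and liver 21 was above every control for Atf4 and Manf. Of 27 genes in the list 22 were negative over 8 livers (median -0.29), and at an unadjusted p below 0.05 4 were lower and 1 higher, and 5 were called lower and 0 higher without liver 21. Ddit3, the stress factor CHOP, was among the positive ones at 3.27, 3.19, 3.0 and 2.99 in the controls and 4.0, 4.46, 3.38 and 5.44 in LKO_NASH (0.34, adjusted p = 0.384). The Hspa5 promoter carries the endoplasmic reticulum stress element that ATF6 and XBP1 bind, shown in capitals at position -65 (RefSeq, GRCm38.p6, chr2:34771840-34772139, plus strand).
Hspa5 promoter: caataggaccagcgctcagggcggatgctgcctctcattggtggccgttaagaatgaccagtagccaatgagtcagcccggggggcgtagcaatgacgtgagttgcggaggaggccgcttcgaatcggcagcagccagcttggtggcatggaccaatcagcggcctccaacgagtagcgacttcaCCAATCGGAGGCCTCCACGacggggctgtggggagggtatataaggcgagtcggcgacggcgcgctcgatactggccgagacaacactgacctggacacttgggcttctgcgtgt
Searched on both strands as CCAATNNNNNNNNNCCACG, it lies in 39 of 32851 windows (0.119%) and 19 of the 10392 tested genes matched (0.183%). It lies in 3 of the 196 lower-called genes (1.53%) and 0 of the 130 higher-called genes, shares that were not tested.

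Among genes of cholesterol synthesis and uptake 2 were called higher without liver 21, Hmgcs1 among them. Hmgcs1, which makes the precursor of the mevalonate pathway, had 8.63, 10.3, 12.7 and 12.4 FPKM in WT_NASH, 9.25 in liver 21 and 21.1, 24.3 and 22.7 in livers 22 to 24, and rose by 0.88 without liver 21 (adjusted p = 0.0239). Of 24 genes of cholesterol synthesis and uptake 22 were positive (median 0.29), 2 of them higher and 1 lower with an unadjusted p below 0.05. The list level was -0.17, -0.18, -0.01 and -0.05 in livers 17 to 20 and -0.49, -0.05, 0.84 and 0.10 in livers 21 to 24, highest in liver 23. Cyp7a1, the rate-limiting enzyme of bile acid synthesis, had 23.4, 38.5, 38.7 and 44.0 in WT_NASH, 10.7 in liver 21, the lowest of the 8, and 91.5, 104 and 92.8 in livers 22 to 24. It rose by 1.25 without liver 21 (adjusted p = 0.028) and had 0.89 with it (0.457). Slco1a1, an organic anion uptake carrier gene, had 80.4, 99.4, 100.2 and 90.9 in the controls and 65.5, 47.3, 45.9 and 73.3 in LKO_NASH without overlap (-0.92 without liver 21, adjusted p = 0.0376). The Hmgcs1 promoter is shown for its sterol regulatory element, TCACCCCAC, in capitals at position -137 (RefSeq, GRCm38.p6, chr13:119690101-119690400, plus strand).
Hmgcs1 promoter: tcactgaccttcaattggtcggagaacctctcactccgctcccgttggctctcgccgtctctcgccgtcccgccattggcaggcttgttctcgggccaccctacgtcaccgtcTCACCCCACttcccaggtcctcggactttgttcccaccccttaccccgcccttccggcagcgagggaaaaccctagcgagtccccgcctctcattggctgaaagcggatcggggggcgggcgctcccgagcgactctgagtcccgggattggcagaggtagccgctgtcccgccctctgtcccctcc
The same letters occur in 181 of 32851 windows (0.551%) and in 78 of the 10392 tested genes matched (0.751%). They occur in 1 of the 130 higher-called (0.769%) and 0 of the 196 lower-called genes, shares that were not tested. Of 22 lipoprotein genes 7 were positive and 15 negative. Apoc2, the activator of lipoprotein lipase, rose from 232, 299.7, 397 and 319 in WT_NASH to 433, 593, 552 and 584 in LKO_NASH without overlap (0.72 without liver 21, adjusted p = 0.048), Lipg, endothelial lipase, rose by 1.36 (0.0455), and Apom, of high density lipoprotein, fell (-0.94, 0.0328). The median of that list was -0.08 on counts and 0.08 on log2(FPKM + 1).

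Growth hormone pulses set sex-biased gene expression in mouse liver. Hsd3b5, a male-biased steroid dehydrogenase gene, had 32.7, 61.3, 53.6 and 24.5 in the controls and 14.0, 10.6, 10.1 and 15.5 in LKO_NASH. All 4 LKO_NASH livers were below all controls, with a log2 fold change of -1.94 ± 0.30 (SE, n = 4 and 4, adjusted p = 0.254) over 8 livers and -2.02 (adjusted p = 0.0314) without liver 21. Mup1, a major urinary protein, split the controls, with 2165, 1647, 368 and 492 against 516, 184, 282 and 272, and is one of a family of near-identical genes. Cyp17a1, a steroid hydroxylase gene, rose without liver 21 from 1.22, 1.02, 2.45 and 2.49 to 7.42, 20.1 and 4.75 (2.42, adjusted p = 0.0461), and liver 21 had 0.91. Of 19 tested genes 8 were positive and 11 negative (median -0.40), and at an unadjusted p below 0.05 7 were lower and 3 higher. Bcl6, a repressor of female-biased genes, had 2.13, 2.69, 3.38 and 2.12 in the controls and 2.12, 3.37, 13.8 and 40.2 in LKO_NASH (2.33, adjusted p = 0.343), and livers 23 and 24 alone lay above the controls.

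For several immune genes liver 21 lay with the other LKO_NASH livers. In bulk liver, more cells of a type and more RNA per cell cannot be told apart. Cxcl10, a chemokine that draws T cells, had 0.33, 1.53, 2.29 and 1.76 in the controls and 4.76, 5.98, 4.44 and 5.41 in LKO_NASH, and Ccl5 had 0.78, 1.78, 1.66 and 2.38 in the controls and 5.48, 3.01, 4.94 and 6.69 in LKO_NASH. Neither gene overlapped between the groups, and the log2 fold changes of 1.65 and 1.46 (adjusted p = 0.304 and 0.304) were 1.66 and 1.39 without liver 21 (0.0626 and 0.0626). Vcam1, an adhesion molecule of activated endothelium, had 4.26, 3.7, 4.86 and 6.17 in the controls and 10.2, 7.58, 6.54 and 10.5 in LKO_NASH, also without overlap. Of 19 chemokine, cytokine and adhesion genes 14 were positive (median 0.33), and at an unadjusted p below 0.05 8 were higher and 1 lower, and on normalised counts 5 lay above all controls in all 4 LKO_NASH livers.

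The level of the antigen presentation list was highest in liver 21. Cd74, the chaperone of MHC class II, had 27.9, 41.0, 91.9 and 56.3 in the controls and 181, 102, 74.7 and 177 in LKO_NASH, with liver 23 inside the control range. Psmb9, an immunoproteasome subunit, had 5.76, 8.26, 11.7 and 7.25 in the controls and 20.9, 14.5, 21.4 and 15.7 in LKO_NASH without overlap (0.996, adjusted p = 0.304). Of 19 MHC genes 18 were positive (median 0.69, 0.46 without liver 21) and 13 passed an unadjusted p below 0.05. Of 30 interferon-stimulated genes 29 were positive (0.55, 0.44 without liver 21) and 15 passed. The level of the MHC list was 0.05 in liver 23 and 0.08 in control liver 19. That of the interferon list was -0.20 in liver 23, against -0.11 and -0.16 in control livers 18 and 19. In both lists liver 23 lay inside the control range, and livers 21, 22 and 24 lay above every control. Gbp6, an interferon-induced GTPase gene, shows the part of liver 21, with 1.42, 2.14, 2.71 and 2.2 in the controls, 14.1 in liver 21 and 4.49, 2.76 and 5.72 in livers 22 to 24, and its log2 fold change of 1.55 was 0.85 without it (adjusted p = 0.319 and 0.0697). edgeR called no member of the lists of chemokines, MHC and interferon-stimulated genes with or without liver 21, and without it 7, 9 and 9 were higher and 1, 0 and 0 lower with unadjusted p below 0.05. DESeq2 called 4, 1 and 1 higher over 8 livers, Ccl5, Cxcl10, Vcam1, Psmb9 and Gbp6 among them, and 3, 2 and 3 higher and 1, 0 and 0 lower without liver 21. Over all tested genes DESeq2 called 0.704% higher with 8 livers, and 5.77% higher and 7.98% lower without liver 21. At an unadjusted p below 0.05 without liver 21 those shares were 13.6% and 15.0%.

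Markers of immune cells were summed beside these genes, and their part in the results was not tested. The 18 markers of recruited and lipid-associated macrophages summed to 218.45 to 312.86 FPKM in WT_NASH and 338.68 to 491.37 in LKO_NASH. Ctsd, a lysosomal protease gene that many cells express, made up much of that sum, and without it, a choice made after the values were seen, the sums overlapped at 80.89 to 142.49 and 120.92 to 243.79. The level of the list on counts also overlapped, and no member lay above all controls in all 4 LKO_NASH livers on counts, with 16 of 18 positive (median 0.77) and 6 at an unadjusted p below 0.05. Gpnmb and Trem2, which mark lipid-associated macrophages, were high in liver 24 alone, with 1.73, 1.42, 0.88 and 14.0 and 1.15, 1.02, 0.56 and 5.8 in livers 21 to 24 against 0.080, 0.20, 1.95 and 0.67 and 0.20, 0.52, 1.49 and 1.03 in WT_NASH. The 14 Kupffer cell markers overlapped, with 199.14 to 277.44 in WT_NASH and 175.41 to 356.04 in LKO_NASH, and Clec4f, the defining one, had 17.1, 11.8, 21.0 and 17.2 in the controls and 27.1, 26.1, 15.5 and 19.3 in LKO_NASH. C6 took a large part of the control sums, with 120.9, 90.18, 94.25 and 122.7 in the controls and 102, 48.25, 44.28 and 97.36 in LKO_NASH. Its log2 fold change was -0.71 over 8 livers (adjusted p = 0.357, edgeR), where 11 of the 14 markers were positive and 3 negative (median 0.34). The 13 T and NK cell markers found summed to 2.35 to 3.34 and 4.52 to 6.41, with 11 of 13 below 1 FPKM in every liver, and the 9 B and plasma cell markers to 3.47 to 5.5 and 5.14 to 10.9. The 9 neutrophil markers found had 3.96 to 8.16 and 3.69 to 7.51, and erythroid markers, a sign of blood in the sample, 1755.35 to 4046.97 and 2904.78 to 5575.92. For T and NK cells 13 of 15 listed markers were found and for neutrophils 9 of 10, and the others have no value here. None of the markers found was at 0 in all livers, but some were too low to be tested. Without liver 21 edgeR tested 18 recruited macrophage, 14 Kupffer cell and 10 T and NK cell markers. It also tested 5 B and plasma cell, 4 neutrophil and 7 erythroid markers, and called 0 in any of these lists. At an unadjusted p below 0.05 there, 5 recruited macrophage, 1 Kupffer cell, 3 T and NK cell, 2 B and plasma cell, 2 neutrophil and 1 erythroid marker were higher and 2 Kupffer cell markers lower, and DESeq2 called 3 recruited macrophage markers and 1 B and plasma cell marker higher and 2 Kupffer cell markers lower. Among all tested genes the higher and lower shares were 13.6% and 15.0% at that unadjusted p, and 5.77% and 7.98% by DESeq2.

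**Figure D5:**
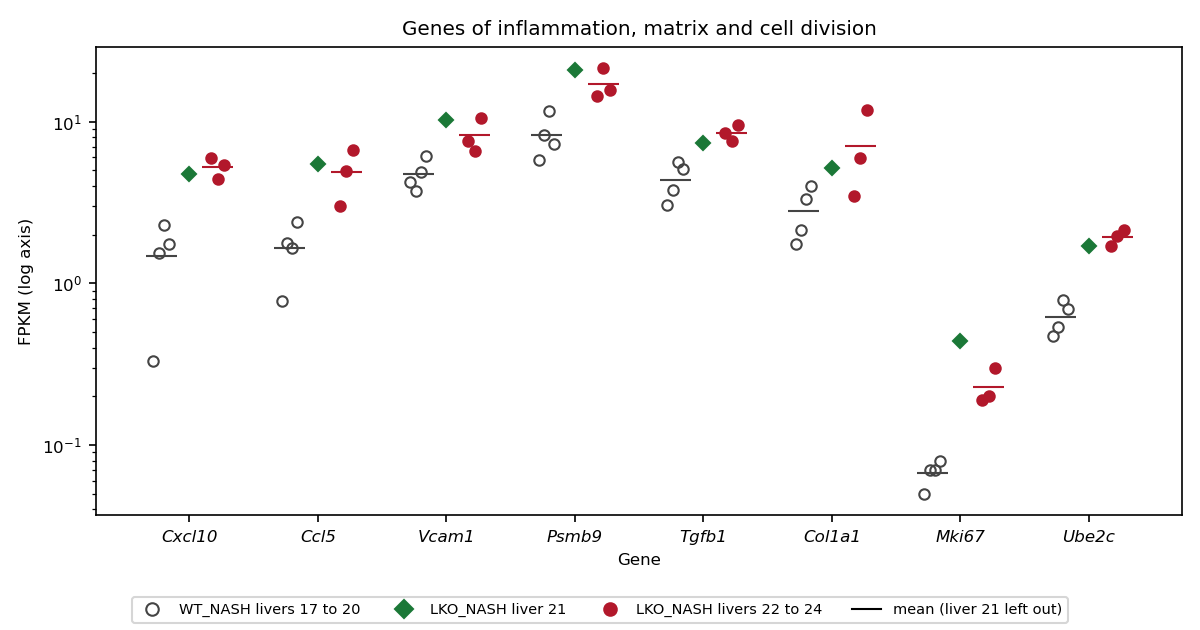
FPKM per liver, on a log axis, of 8 genes of inflammation, matrix and cell division, with symbols as in the plot of lipid genes. Cxcl10, Ccl5, Vcam1, Psmb9, Tgfb1, Mki67 and Ube2c place all 4 LKO_NASH livers above all controls, and Col1a1 does so for livers 21, 23 and 24.

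The level of the matrix list was highest in liver 24. Tgfb1, the main profibrotic cytokine, had 3.07, 3.76, 5.63 and 5.07 in the controls and 7.34, 8.51, 7.6 and 9.55 in LKO_NASH, without overlap (log2 fold change 0.76, adjusted p = 0.304), and it rose by 0.80 without liver 21 (adjusted p = 0.0474). Col1a1, the main collagen of scar, had 1.74, 2.15, 3.31 and 4.01 in the controls and 5.18, 3.47, 5.99 and 11.8 in LKO_NASH (1.08, adjusted p = 0.343). Of 35 collagen and matrix genes 31 were positive (median 0.33), and at an unadjusted p below 0.05 6 were higher and 1 lower, and without liver 21 edgeR called Tgfb1 alone, where DESeq2 called 4 higher and 3 lower. The 15 stellate cell markers summed to 129.44 to 173.51 in WT_NASH and 153.87 to 183.06 in LKO_NASH, with 9 of 14 tested positive (median 0.04). Sinusoidal endothelium markers summed to 80.36 to 116.34 and 105.94 to 187.03, with liver 21 the lowest of LKO_NASH, and 14 of 15 were positive (median 0.35). Bile duct markers had 24.69 to 47.6 and 30.39 to 64.61. Without liver 21 edgeR called 0 of the 15 endothelium markers. In that fit 9 of the 15 had an unadjusted p below 0.05, all of them higher, where 13.6% of all tested genes were. DESeq2 called 5 higher and 0 lower, where its shares of all tested genes were 5.77% and 7.98%. Stellate cell and bile duct markers had 0 by each of these measures.

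Markers of dividing cells were at low levels in all livers. Mki67 had 0.050, 0.070, 0.070 and 0.080 in the controls and 0.44, 0.19, 0.20 and 0.30 in LKO_NASH, with a log2 fold change of 1.87 ± 0.32 (SE, n = 4 and 4, adjusted p = 0.304) over 8 livers and 1.53 (adjusted p = 0.0314) without liver 21. Ube2c, which helps the exit from mitosis, had 0.47, 0.54, 0.79 and 0.69 in the controls and 1.69, 1.69, 1.96 and 2.14 in LKO_NASH (1.43 without liver 21, adjusted p = 0.0314). E2f1, a regulator of S phase entry, had 0.66, 0.75, 1.27 and 0.93 in the controls and 1.01, 2.2, 2.18 and 2.38 in LKO_NASH and rose by 1.15 without liver 21 (adjusted p = 0.0376). Of 25 cell cycle genes 20 were positive (median 0.41), and at an unadjusted p below 0.05 12 were higher and 1 lower. On normalised counts 10 of the 25 lay above all controls in all 4 LKO_NASH livers. The cyclin gene Ccnd1, which hepatocytes use to enter the cycle, had 11.9, 5.12, 10.2 and 26.4 in the controls and 15.6, 7.53, 8.51 and 8.72 in LKO_NASH (-0.52, adjusted p = 0.555).

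The remaining lists had 3 members or fewer called by edgeR. Hnf4a, the master regulator of hepatocyte genes, had 214, 169, 173 and 167 FPKM in WT_NASH, 212 in liver 21 and 130.4, 110.0 and 125 in livers 22 to 24, and fell by 0.74 on the log2 scale without liver 21 (adjusted p = 0.0435). Of 20 hepatocyte identity genes 7 were positive and 13 negative, with a median of -0.08 on counts and 0.05 on log2(FPKM + 1). Among genes of glutathione and the Nrf2 response 21 of 26 were positive (median 0.36) and 7 passed an unadjusted p below 0.05, all of them higher. Without liver 21 edgeR tested 27, with 11 higher and 5 lower at that unadjusted p, and DESeq2 called 8 higher and 2 lower. Gstm2 and Gsta4 rose (2.13 and 0.70 without liver 21, adjusted p = 0.0389 and 0.0455) and Gstp1 fell (-1.37, 0.0337), and these transferase genes have close copies. Of 23 lysosomal genes 18 were positive (median 0.29), 11 at an unadjusted p below 0.05. In the edgeR fit without liver 21, 10 were higher and 1 lower at that unadjusted p, and DESeq2 called 7 higher and 0 lower. Without liver 21 Atp6v0d2, a subunit of the lysosomal proton pump, rose by 1.39 (adjusted p = 0.0491) and Asah1, acid ceramidase, by 0.41 (0.048). Slc39a14, a zinc and iron importer gene, fell (-1.01, 0.0313), as did the amino acid transporter gene Slc38a2 (-0.80, 0.0405). Of 19 clock genes Per2 rose by 0.52 without liver 21 (adjusted p = 0.048), with liver 21 the lowest of the 8 at 3.24. The lists of p53 targets, methionine and choline metabolism, zonation and P450 genes had medians of 0.10, 0.18, 0.14 and 0.06. Without liver 21 edgeR called 0 of their members, with 3, 4, 5 and 4 higher and 2, 0, 2 and 2 lower with unadjusted p below 0.05, and DESeq2 called 1, 1, 3 and 2 higher and 1, 0, 2 and 1 lower. The shares of all tested genes higher and lower were 13.6% and 15.0% at that unadjusted p, and 5.77% and 7.98% by DESeq2. The median of the urea cycle list was -0.11 (0.05 on log2(FPKM + 1)).

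Several of the largest differences without liver 21 had an uneven control group. Moxd1, a monooxygenase-like gene, had 4.66, 2.51, 0.69 and 0.14 FPKM in WT_NASH, 2.23 in liver 21 and 0, 0 and 0.010 in livers 22 to 24, and 2 of the last 3 were at 0. Lepr, the leptin receptor, had 17.6, 3.92, 28.9 and 70.8 in the controls, 73.3 in liver 21 and 1.56, 2.93 and 3.07 in livers 22 to 24, and Ugt2b37, a glucuronosyltransferase gene, 12.8, 3.11, 1.28 and 13.5 in the controls, 20.2 in liver 21 and 0.19, 0.54 and 0.53 in livers 22 to 24. For all 3, liver 21 lay within or above the controls, and the log2 fold changes over 8 livers were -1.96, -0.65 and -0.61 (adjusted p = 0.528, 0.798 and 0.823). Mt1, a metallothionein, had 2527, 843, 858 and 1203 in the controls, 2016 in liver 21 and 328, 252 and 120.3 in livers 22 to 24 (-2.71 without liver 21, adjusted p = 0.0389). In the other direction Themis, known as a T cell signalling gene, had 0.060, 0.36, 0.57 and 0.050 in the controls, 0.49 in liver 21 and 2.98, 2.45 and 2.82 in livers 22 to 24 (3.23, 0.0423), Aqp8, a water channel of bile canaliculi, 4.09, 7.61, 11.2 and 5.78 in the controls, 5.81 in liver 21 and 29.3, 96.0 and 37.1 in livers 22 to 24 (2.77, 0.0314), and Abcb1a, a drug efflux pump gene, 0.29, 0.64, 0.68 and 0.62 in the controls, 0.56 in liver 21 and 3.05, 2.37 and 2.27 in livers 22 to 24 (2.04, 0.0192). H2-Q1, a class I like gene with close relatives, had 1.96, 2.13, 2.05 and 1.3 in the controls, 1.94 in liver 21 and 7.78, 9.15 and 10.3 in livers 22 to 24 and rose by 2.11 without liver 21 (adjusted p = 0.00891). The other genes among the 12 largest higher calls were Slc22a27, Raet1d, Gal3st1, Cyp2a22 and Sema5b, with log2 fold changes of 3.24, 2.22, 1.95, 1.92 and 1.67 without liver 21. Among the lower calls they were Scara5, Fgl1, Cadm4, Fam222a and Dnajc12, with -3.15, -2.60, -2.53, -2.37 and -2.34. Slc41a2, a magnesium transporter gene among the lower calls, had 20.5, 15.0, 15.2 and 12.6 in the controls, 16.0 in liver 21 and 3.6, 2.55 and 3.87 in livers 22 to 24 (-2.42, 0.00891).

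The genes of lowest p over all 8 livers, among those whose FPKM did not overlap, spanned several functions. Higher in all 4 LKO_NASH livers were Acot2, Pex11a, Ube2c, Lig1 and Mis18a (a centromere factor), Stmn1 and Stk10 (a microtubule regulator and a kinase of lymphocytes), Ptpn6 (the leukocyte phosphatase SHP-1), Mknk2 (a kinase of the initiation factor eIF4E), Samd9l (an interferon-induced gene), Rtn4 (a reticulon that shapes the endoplasmic reticulum) and Mob3a. Rtn4 had 13.0, 14.4, 14.3 and 13.8 in the controls and 20.7, 21.7, 20.8 and 24.9 in LKO_NASH (log2 fold change 0.51, adjusted p = 0.254). Ptpn6 had 5.42, 6.24, 7.02 and 6.3 in the controls and 9.29, 11.0, 9.59 and 10.7 in LKO_NASH (0.55, 0.304), and Stmn1 2.57, 2.99, 2.89 and 3.41 in the controls and 6.21, 4.53, 5.85 and 7.03 in LKO_NASH (0.84, 0.304). Lower in all 4 were Hsd3b5, Slco1a1 and Cyp2c69 (a P450), Lrig1 (a brake on growth factor receptors), Plxnb1 and Ephb4 (receptors for semaphorins and ephrins), Car14 (a membrane carbonic anhydrase), Abhd17b (a depalmitoylase), Rtn4rl1, and the zinc finger genes Zfp825, Zfp970 and Zfp595, which have close relatives. Lrig1 had 5.92, 5.93, 7.4 and 7.14 in the controls and 5.42, 4.55, 4.3 and 5.42 in LKO_NASH (-0.57, 0.304), and Plxnb1 5.93, 5.6, 5.31 and 5.07 in the controls and 4.01, 3.08, 4.2 and 3.9 in LKO_NASH (-0.68, 0.304). None of these 24 genes passed the edgeR test over 8 livers, where the lowest adjusted p was 0.242 and the test called 0.0% of genes, and DESeq2 called all 24, with adjusted p from 8.2e-08 to 0.0136. Their values are those that placed them in this set.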

How the data were processed

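RNA from 8 livers was sequenced after oligo(dT) selection or rRNA depletion and random priming, per the labels' protocols. The expected counts and FPKM values were deposited by the authors as 1 table per liver, per the file headers. The submitters' processing notes name HISAT2, and the sources used here name no counting tool, build or annotation. Genes missing from a library's table were set to 0. The tables held 17436 entries, of which 26 named by a transcript were summed into their genes, giving 17410 genes, and 17371 matched a RefSeq table of GRCm38.p6. A spreadsheet had changed 22 symbols of 1 library to dates, and these were read from the gene ID.

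Expected counts were rounded and tested with edgeR 4.0.16 (filterByExpr, TMM scaling, quasi-likelihood F test, two-sided, Benjamini-Hochberg adjustment over all tested genes, called below 0.05), in R 4.3.3. The 8-liver fit had a biological coefficient of variation of 0.221 and the 7-liver fit, without liver 21, of 0.185. Groups are those of the sample titles, without covariates. Libraries differed pairwise by far more than counting noise (chi-square per degree of freedom 58.4 to 240.6), so none was counted as a duplicate. The depth of 21254937 or more counts per liver makes counting error small for all but low genes. Alternatives were limma 3.58.1 with voom or on log2(FPKM + 1) and log2(FPKM + 0.1), DESeq2 1.42.0, other scaling and filters, more libraries in the fit, and each liver left out. The edgeR fit was tested on simulated data.

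The comparison, the 49 gene lists, the genes named and the removal of liver 21 were chosen with earlier results of these data known. Named were 7 genes of the ChREBP system, in each direction the 12 genes of lowest p over 8 livers whose FPKM did not overlap and the 12 largest called changes without liver 21 (predicted genes left out, and the higher group averaging 1 FPKM or more), up to 4 genes per list, and other list members with their values. Lists are described by counts and medians and carry no test. Motifs were searched in RefSeq windows from 250 bases before to 50 after each gene start. Some genes are not reported here.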

Additional observations from a re-analysis of the deposited data

Results flagged for a closer look

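In 37 of 254 groups of 4 values, 1 for each gene described in the text and each of WT_NASH and LKO_NASH, the FPKM of 1 liver stood farther from the other 3 than Dixon's test allows at 95%. Chance alone gives about 1 in 20 such groups. The outlying liver was 21 in 25 of them, and several of these genes are named because they were called without that liver, which widens its gap. Among those higher in liver 21 than in the other LKO_NASH livers, Atf4 had 69.5 FPKM in liver 21 against 39.7 to 44.5 in the other 3, Cadm4 8.13 against 1.01 to 1.5, Ccnd1 15.6 against 7.53 to 8.72 and Dnajc12 14.6 against 2.69 to 3.01. Fetub had 510.4 FPKM in liver 21 against 314 to 328 in the other 3, Fga 3079 against 965 to 1220.0, Fgg 3550.0 against 1270.0 to 1612 and Fgl1 417 against 66.6 to 86.7. Il1r1 had 49.0 FPKM in liver 21 against 10.3 to 14.1 in the other 3, Insc 8.84 against 3.26 to 3.99, Lepr 73.3 against 1.56 to 3.07 and Moxd1 2.23 against 0 to 0.010. Mt1 had 2016 FPKM in liver 21 against 120.3 to 328 in the other 3, Scara5 16.7 against 0.85 to 3.12, Sec61a1 73.1 against 36.4 to 42.5 and Slc39a14 84.7 against 38.6 to 43.2. Slc41a2 had 16.0 FPKM in liver 21 against 2.55 to 3.87 in the other 3, Socs3 7.07 against 1.66 to 2.02, Stat3 48.3 against 20.9 to 22.1 and Ugt2b37 20.2 against 0.19 to 0.54. Among those lower in liver 21, Cyp7a1 had 10.7 FPKM in liver 21 against 91.5 to 104 in the other 3, E2f1 1.01 against 2.18 to 2.38, Fads6 14.7 against 30.0 to 31.2 and Mgst3 9.88 against 27.2 to 30.2. Wfdc2 had 6.92 FPKM in liver 21 against 14.8 to 15.6 in the other 3. In the remaining groups Abcb1a had 0.29 FPKM in liver 17 against 0.62 to 0.68 in the other 3, Acot1 42.2 against 32.2 to 33.7 (liver 18), C8b 115 against 146 to 149.6 (liver 19) and Cpt1b 1.23 against 0.79 to 0.86 (liver 18). Fgf21 had 9.9 FPKM in liver 20 against 1.48 to 2.63 in the other 3, Gpnmb 14.0 against 0.88 to 1.73 (liver 24), Hnf4a 214 against 167 to 173 (liver 17) and Insc 7.13 against 8.56 to 8.84 (liver 19). Itih3 had 639.9 FPKM in liver 17 against 328 to 381 in the other 3, Lig1 1.29 against 1.16 to 1.17 (liver 24), Mis18a 1.06 against 0.84 to 0.84 (liver 19) and Trem2 5.8 against 0.56 to 1.15 (liver 24). Their cause was not tested.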

How the results depend on the processing

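No paired analysis was possible because the replicate numbers of WT_NASH (17 to 20) and LKO_NASH (21 to 24) are not shared. Over 8 livers the 0 higher and 0 lower calls of edgeR held with DESeq2 size factors, with no filter, with a mean FPKM of at least 1, with limma-voom and with limma on both FPKM scales. DESeq2 called 90 higher and 68 lower, a fit of all 16 libraries 86 and 66, and leaving out livers 19 and 21 together 621 and 904. Leaving out 1 liver gave 0 to 166 higher and 0 to 254 lower calls, where the highest values are those without liver 21 and the other 7 fits gave 0. Without liver 21 the 166 higher and 254 lower calls became 749 and 1036 with DESeq2, 991 and 125 on log2(FPKM + 1), 889 and 130 on log2(FPKM + 0.1), and 1253 and 1703 with the other 15 libraries in 1 fit. Leaving out 1 more liver gave 0 to 621 higher and 0 to 904 lower calls, with no called gene left without liver 22. Of the 79 genes reported as called without liver 21, all 79 kept their direction in these alternatives. The call held for 79 of them with DESeq2, 68 with limma-voom and 70 on log2(FPKM + 1), and for 0 without liver 22, 5 without 23, 15 without 24, 25 without 17, 51 without 18, 79 without 19 and 24 without 20.

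Direction changed for 6 genes of uneven or small difference. Cpt1a (0.00 over 8 livers) was -0.01 with no filter, -0.01 with all 16 libraries and -0.07 without livers 19 and 21, and ran from -0.06 to 0.05 when 1 liver was left out. Fgf21 was -0.17 without livers 19 and 21 and ran from -0.01 to 1.14. Srebf1 was 0.01 with limma-voom, 0.12 on log2(FPKM + 1), 0.13 on log2(FPKM + 0.1) and 0.45 without livers 19 and 21, and ran from -0.40 to 0.22. Mlxipl ran from -0.10 to 0.21 and Txnip from -0.07 to 0.34. Lepr, at -0.65 over 8 livers, ran from -3.69 to 0.10. The cause was not tested. Low genes such as Mki67 and Vldlr rest on few counts and limit what depth can show there.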

Other observations

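Genes of the secretory pathway upstream and downstream of the unfolded protein response were examined in 4 further lists, chosen after their values were seen and given without a test. Of 24 genes of protein entry into the endoplasmic reticulum, 23 were negative over 8 livers (median log2 fold change -0.29, against 0.01 over all tested genes), and without liver 21 the edgeR test called 9 lower, among them Sec61a1, the channel subunit, and Ssr1, Ssr2 and Ssr3 of the translocon-associated complex. Sec61a1 had 67.8, 51.5, 48.7 and 67.8 FPKM in WT_NASH, 73.1 in liver 21 and 36.4, 36.8 and 42.5 in livers 22 to 24 (log2 fold change -0.78 without liver 21, adjusted p = 0.0385). Of 18 genes of oligosaccharide transfer and glycoprotein quality control 17 were negative (median -0.21) and 4 were called lower without liver 21, which were Rpn1, Ostc, Uggt1 and Edem3. Of 22 genes of vesicle traffic from the endoplasmic reticulum 18 were negative (median -0.21) and 5 were called lower. Of all tested genes 1.96% were called lower without liver 21.

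Of 20 cytosolic aminoacyl-tRNA synthetases, which load amino acids on tRNA and are known targets of ATF4, 19 were negative over 8 livers (median -0.32) and all 20 without liver 21 (median -0.50, and -0.29 on log2(FPKM + 1)), and Aars, Mars, Nars, Tars and Yars were called lower there. Nars had 46.9, 35.2, 39.4 and 52.9 FPKM in WT_NASH, 52.5 in liver 21 and 32.1, 29.4 and 35.8 in livers 22 to 24 (log2 fold change -0.60 without liver 21, adjusted p = 0.048). The share of all tested genes called lower without liver 21 was 1.96%. In each of the 4 lists the level in liver 21 was exceeded by 1 control, and livers 22 to 24 lay below every control.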
